A study of Homo sapiens with 18 samples.

Results

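KELLY is an established human neuroblastoma cell line with amplified MYCN, and the tumours described here were grown from it as xenografts in mice. The comparison takes 6 tumour libraries, 3 titled control and 3 titled Hmx1, chosen by their titles from 18 libraries of the lines KELLY, LAN-1 and SKNAS. The treatment label reads None for every library, and 2 of the 3 control libraries carry an added MYCN-amp tag. Whether the Hmx1 arm had more or less of the factor, through which construct, and of which species, is not in the labels. Nor do they tie each library to its own animal, and the p-values below therefore measure a spread between libraries that may be technical.

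HMX1 is a homeobox transcription factor of sympathetic and sensory neurons. In sympathetic neurons it works in a network with HAND2 and GATA3 and favours the noradrenergic over the cholinergic transmitter fate, and neuroblastoma with noradrenergic identity keeps that network active. Mitochondrial RNA is a separate pool: the mitochondrial genome codes for a small part of the respiratory chain subunits, the nuclear genome for the rest, and mitochondrial messenger RNAs carry short poly(A) tails, so libraries made from poly(A) RNA contain them.

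Levels are TPM, the length-corrected share of each gene's RNA in its library, and are given in the order control 1, 2, 3 and then Hmx1 1, 2, 3. Between 14420 and 15448 genes per library reached 1 TPM. The number of reads is unknown, but the deposited coverage divided by the deposited FPKM (a fragment value corrected for length and depth) gives a relative depth of 1, 1.58 and 1.17 in the control and 1.38, 1.30 and 1.44 in the Hmx1 libraries, with control 1 set to 1. About 20% of genes lay within 0.1% of that ratio. The noradrenergic marker DBH, which makes noradrenaline, stood at 729 to 1355 TPM in control and 1013 to 1185 in Hmx1. This 1 gene does not check which line a library came from. Of markers of host cells, 13 of 14 macrophage and leukocyte genes, 7 of 8 adipocyte genes and 7 of 8 erythroid genes lay below 1 TPM in all 6 libraries. Other lists were higher: fibroblast markers summed to between 174 and 291 TPM per library and skin epithelium markers to between 37.2 and 93.1 TPM. KRT17 made up most of the skin sum, at 32.9 to 88.1 TPM. Endothelium and muscle markers are given below. All these markers are human identifiers in tumours grown in mice, so low values do not show that host cells were few.

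Mitochondrial transcripts took 33.8%, 12.9% and 29.6% of the TPM of the control libraries and 18.7%, 21.0% and 15.9% of the Hmx1 libraries. The control arm thus held both the highest and the lowest share, and the arms overlapped. The mean was 25.5% ± 11.1 in control and 18.5% ± 2.54 in Hmx1 (SD, n = 3 each; two-sided exact permutation test, p = 0.4, where 0.1 is the smallest possible). The order of the libraries by this share was the exact reverse of their order by relative depth. Control 1 and control 2 lay at opposite ends of the first principal component (56.5 and −46.8, 48.5% of the variance), and the arms separated along the second (12.6 to 24.7 in control, −33.4 to −7.60 in Hmx1, 17.1% of the variance). Control libraries also differed more from each other: the median SD of a gene was 0.41 in control and 0.23 in Hmx1 on the log2(TPM + 1) scale.

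**Figure D1:**
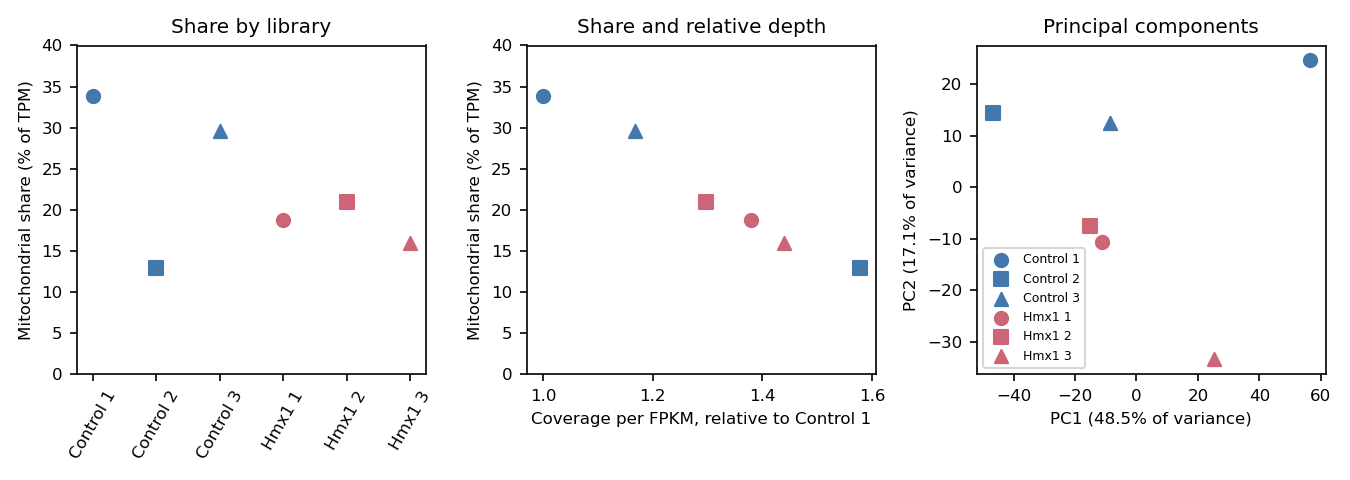
Share of TPM on the mitochondrial genome (percent) by library, the same share against relative depth (coverage per FPKM, control 1 set to 1), and the first 2 principal components, each point 1 library. Control libraries (blue) span 12.9% to 33.8% and Hmx1 libraries (red) 15.9% to 21.0%; the share goes down at each step in relative depth.

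HMX1 itself (ENSG00000215612, GRCh37 chromosome 4, 8847802 to 8873543) stood at 7.72, 3.92 and 5.45 TPM in control and 6.40, 5.41 and 4.68 in Hmx1. The values of the 2 arms were interleaved, and the log2 change was −0.01 with a standard error (SE) of 0.32 (two-sided exact permutation test, p = 0.9). The libraries labelled Hmx1 therefore showed no difference in human HMX1 RNA that could be told from the spread, and whether a Hmx1 sequence of another species was present cannot be read from these tables. HMX2, its close relative, stood between 0 and 0.164 TPM, and HMX3 was listed at 0 in all 6 libraries. MYCN, the amplified oncogene of the line, stood at 948, 2000 and 1326 TPM in control and 1819, 1473 and 1124 in Hmx1 (log2 change 0.09, exact p = 0.8). Its lowest and highest values were both control libraries.

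Of 15092 genes with at least 1 TPM in at least 3 of the 6 libraries, 4 passed an adjusted p of 0.05 (0.0265%), 1 higher in Hmx1 (0.00663%) and 3 lower (0.0199%). An unadjusted p under 0.05 was reached by 410 (2.72%). In 1006 genes (6.67%) the 3 Hmx1 values did not overlap the 3 control values, 738 of them higher in Hmx1 (4.89%) and 268 lower (1.78%). The median log2 change of all genes was 0.04, and 56.5% lay above 0. After the mitochondrial genes were removed and the rest rescaled, that median was −0.08, so changes near these values depend on the scaling.

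DAG1 was the 1 protein-coding gene that passed (ENSG00000173402, GRCh37 chromosome 3, 49506146 to 49573048). It codes for dystroglycan, the receptor that ties the cytoskeleton to laminin in the extracellular matrix. DAG1 stood at 10.5, 30.6 and 21.9 TPM in control and at 1.46, 2.45 and 1.499 in Hmx1. Every Hmx1 library was below every control library, and it fell by 2.87 on the log2(TPM + 1) scale (SE 0.37, limma adjusted p = 0.00606). In the 12 libraries of LAN-1 and SKNAS the level ran from 8.51 to 45.4 TPM with a median of 32.5, so the KELLY Hmx1 libraries were the lowest of the series. A fit of all 18 libraries gave a difference of −3.19 from the LAN-1 change (adjusted p = 0.0445) and of −3.27 from the SKNAS change (adjusted p = 0.00279), both in log2 units. Such differences passed for 0.209% of 18650 genes against LAN-1 (0.107% higher in KELLY, 0.102% lower) and for 4.85% against SKNAS (2.35% higher, 2.5% lower). No gene on the same strand overlaps DAG1 in these tables. With library weights, a fit that did not converge, its adjusted p was 0.165, and with no filter on low genes it was 0.434.

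Promoter sequence is shown for DAG1, the gene that passed, and for FABP6, the 1 named gene whose window held the letters CAAGTG, a core that HMX homeodomains are known to bind. Each window is the 250 bases before an annotated start in RefSeq GRCh38.p14, plus strand, and capitals mark the match. The DAG1 window is chr3:49469882-49470131 (70.0% GC) and the FABP6 window chr5:160229256-160229505 (56.8% GC).
DAG1: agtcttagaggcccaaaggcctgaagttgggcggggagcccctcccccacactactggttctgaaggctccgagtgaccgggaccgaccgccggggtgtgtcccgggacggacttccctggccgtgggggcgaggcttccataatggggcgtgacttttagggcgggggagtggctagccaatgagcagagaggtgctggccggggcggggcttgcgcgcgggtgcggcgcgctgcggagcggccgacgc
FABP6: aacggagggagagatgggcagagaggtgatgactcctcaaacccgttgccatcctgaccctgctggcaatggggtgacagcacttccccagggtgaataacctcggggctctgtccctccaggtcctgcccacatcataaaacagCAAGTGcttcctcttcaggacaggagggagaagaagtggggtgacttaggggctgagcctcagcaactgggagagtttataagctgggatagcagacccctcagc
CAAGTG or its reverse complement CACTTG was in 3336 of 35116 windows of this length (9.50%), in 1004 of 10351 tested genes with a window (9.70%) and in 1 of 10 named genes with one. The share among the named genes was close to that of all tested genes.

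The other 3 genes that passed have no symbol and each lies inside a longer gene on the same strand. ENSG00000256240, inside the zinc finger gene ZNF714 on chromosome 19, stood at 6.15, 9.24 and 12.5 TPM in control and 0.224, 0.344 and 0.197 in Hmx1 (log2 change −2.99, SE 0.31, limma adjusted p = 0.000571). ENSG00000269032, inside CENPBD2P on the same chromosome, stood at 3.14, 5.49 and 5.44 TPM in control and 0.377, 0.246 and 0.307 in Hmx1 (log2 change −2.09, SE 0.29, limma adjusted p = 0.0106). ENSG00000261705, inside PDP2 on chromosome 16 (66921918 to 66922834), was listed at 0 in the 3 control libraries and at 5.61, 6.83 and 4.13 TPM in Hmx1 (limma adjusted p = 0.000571). All 3 were complete separations of the arms. The same genes also lay below 1 TPM in 3, 4 and 4 of the 12 libraries of the other lines, in both arms, and the tables do not tell how reads were divided between a gene and the longer one around it. Their hosts did not separate in the same way: ZNF714 ran from 11.3 to 20.001 TPM in control and from 11.4 to 17.5 in Hmx1. None of the 3 kept an adjusted p under 0.05 when the spread was pooled over all 18 libraries (0.469, 0.137 and 0.500 for ENSG00000256240, ENSG00000269032 and ENSG00000261705). A same-strand overlap was present for 75% of the genes that passed and 33.8% of the genes tested.

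Among protein-coding genes higher in Hmx1, none passed, and the 10 with the smallest p and separate arms are given as values. Their separation follows from this choice. TCEAL7, a small nuclear protein of the TCEAL family encoded on chromosome X (102585124 to 102587254), stood at 6.01, 9.54 and 5.84 TPM in control and 21.1, 29.9 and 33.2 in Hmx1. Its lowest Hmx1 library was above its highest control library, with a log2 change of 1.84 (SE 0.31, limma adjusted p = 0.0571). FABP6, a bile acid binding protein (GRCh37 chromosome 5, 159614374 to 159665742), stood at 23.2, 23.2 and 21.9 TPM in control and 73.6, 49.2 and 66.3 in Hmx1. Control libraries were nearly equal, and the log2 change was 1.41 (SE 0.27, limma adjusted p = 0.102). With the spread pooled over 18 libraries TCEAL7 and FABP6 passed, with limma adjusted p-values of 0.00113 and 0.00765. That spread takes in SKNAS, where TCEAL7 lay between 0 and 0.697 TPM, and LAN-1, where FABP6 lay between 76.5 and 83.8 TPM. It may therefore understate the spread between KELLY libraries.

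CRH, corticotropin-releasing hormone, stood at 33.0, 15.3 and 40.9 TPM in control and 149, 52.7 and 81.2 in Hmx1 (log2 change 1.61, adjusted p = 0.442). Its arms were separate by the choice of genes, but the Hmx1 libraries differed among themselves nearly as widely as the arms did. THBS2, the matrix protein thrombospondin 2, stood at 0.653, 1.57 and 0.317 TPM in control and 6.24, 3.53 and 2.65 in Hmx1 (log2 change 1.47, adjusted p = 0.376). CAPZA1, a subunit of the actin capping protein, stood at 84.5, 73.2 and 64.6 TPM against 156, 162 and 153 (log2 change 1.08, adjusted p = 0.298). Its 3 Hmx1 libraries were close together and well above control. CTAG2, a cancer-testis antigen encoded on chromosome X, stood at 67.5, 80.2 and 44.0 against 106.8, 141 and 184 TPM. RBM7, a cofactor of nuclear RNA decay, AGPAT5, an acyltransferase of phospholipid synthesis, GRPEL2, a co-chaperone of mitochondrial protein import, and MFAP3 had log2 changes of 1.35, 1.32, 1.41 and 1.46, with adjusted p-values from 0.376 to 0.480.

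In the other direction, 9 protein-coding genes stood beside DAG1 without passing. They too were chosen by smallest p among genes with separate arms, so their separation follows from the choice. RNMT, the enzyme that methylates the messenger RNA cap, stood at 17.2, 43.1 and 27.6 TPM in control and 5.99, 6.49 and 5.14 in Hmx1. Its Hmx1 libraries were close together, with a log2 change of −2.05 (SE 0.34, limma adjusted p = 0.0571). RNMT passed under 9 of 17 alternative settings. UBB, one of the genes that supply ubiquitin, stood at 8.64, 9.63 and 27.2 TPM in control and 2.69, 3.39 and 1.86 in Hmx1 (log2 change −1.99, SE 0.40, adjusted p = 0.152). All 6 KELLY libraries were far below the other lines, where UBB ran from 609 to 1045 TPM. SKIL, a repressor of SMAD signalling, stood at 10.2, 10.8 and 7.49 against 3.26, 4.10 and 2.25 TPM (log2 change −1.33, adjusted p = 0.407), and PLEKHB2, a membrane-associated protein, at 13.6, 30.2 and 8.33 against 4.51, 3.97 and 2.43.

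The remaining 5 genes have models that overlap or copy others. HSPE1-MOB4, a read-through of HSPE1 into MOB4, stood at 3.32, 1.52 and 1.71 TPM in control and was listed at 0 in the 3 Hmx1 libraries. HSPE1 alone ran from 173 to 325 TPM in control and from 335 to 421 in Hmx1. NBPF20, of a family of near-identical copies, stood at 1.15, 2.65 and 2.10 TPM and was listed at 0 in Hmx1. ENSG00000267426, which overlaps FBF1 and MRPL38, and ENSG00000257524, which overlaps AK1 and ST6GALNAC6, had log2 changes of −1.55 and −2.07. ENSG00000241962, which overlaps MRPL30 and LIPT1 on its strand, stood at 11.7, 12.6 and 13.2 TPM in control and 2.75, 4.17 and 3.01 in Hmx1 (log2 change −1.66, adjusted p = 0.0749).

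**Figure D2:**
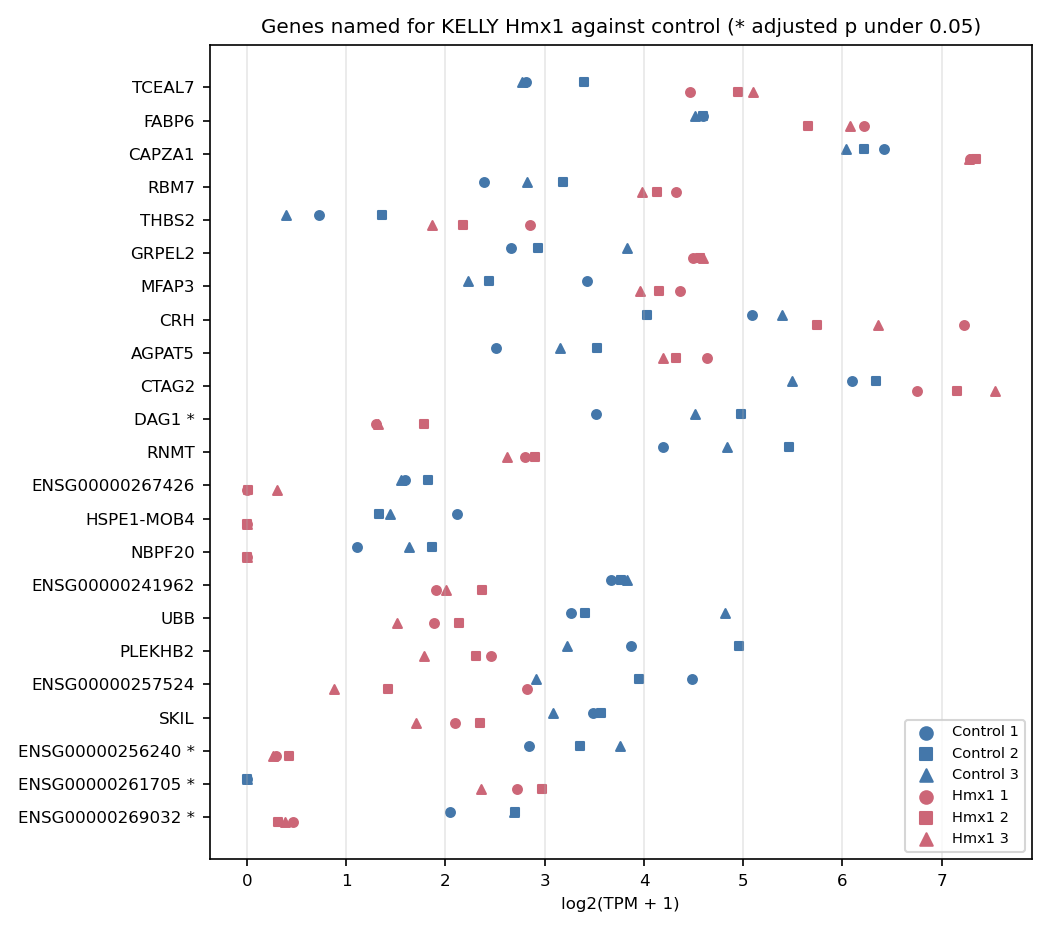
Level of each gene named for the comparison, as log2(TPM + 1), with 3 control (blue) and 3 Hmx1 (red) libraries as points, symbols giving the library number and asterisks the 4 genes with a limma adjusted p under 0.05. DAG1 lies between 1.46 and 2.45 TPM in Hmx1 and between 10.5 and 30.6 TPM in control; points at 0 are genes listed at 0.

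The noradrenergic network showed no call. Of 17 noradrenergic transcription factors tested, 11 lay above 0 and 6 below, with a median log2 change of 0.11 against 0.04 for all genes, and none had separate arms. EYA1, a transcriptional coactivator, stood at 21.3, 43.5 and 20.6 TPM in control and 46.1, 37.2 and 38.9 in Hmx1 (log2 change 0.58, adjusted p = 1). ISL1, a LIM homeobox factor, stood at 76.9, 110 and 116.4 against 80.6, 80.0 and 62.4 TPM (log2 change −0.43). Both sets of values overlapped between the arms. The 16 genes of catecholamine synthesis and handling had a median of 0.03 and the 10 cholinergic genes a median of −0.09. The cholinergic receptor gene CHRNA7 had separate arms, at 9.36, 17.2 and 13.1 TPM in control and 6.21, 8.37 and 7.31 in Hmx1, with a log2 change of −0.75 and an adjusted p of 1. It was 1 of the 10 cholinergic genes, where 1.78% of all genes were separate and lower. In SKNAS its change was 1.01 (limma fit of 18 libraries, adjusted p = 0.00506). The KELLY change differed from it by −1.75 (adjusted p = 0.00161 in the same fit).

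Among 24 neuronal differentiation genes and 8 receptor genes tested, MAP2 and GFRA3 were the members with separate arms, 1 in each list, both higher in Hmx1 (4.2% and 12.5%, against 4.89% of all genes). MAP2, a microtubule protein of dendrites, stood at 39.6, 65.3 and 67.1 TPM in control and 116.4, 119.4 and 92.1 in Hmx1 (log2 change 0.95, SE 0.27, unadjusted p = 0.00344, adjusted p = 0.931 in limma). It had the smallest p of the 24 neuronal differentiation genes, whose median was 0.09. GFRA3, the receptor subunit for artemin, stood at 13.99, 23.7 and 17.2 against 24.8, 31.4 and 32.7 TPM (log2 change 0.69). With all 6 libraries, proliferation lists lay near the all-gene median. Medians were 0.08 for 19 S phase genes, 0.00 for 20 genes of G2 and M phase and 0.15 for 24 targets of MYC and MYCN. Without control 1 these 3 medians were −0.12, −0.32 and −0.02, beside −0.12 for all genes. Without control 2 they were 0.29, 0.27 and 0.29, beside 0.19 for all genes.

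Stress lists had higher medians, again with no call. The median was 0.30 for 21 genes of the unfolded protein response, 18 of them above 0, 0.28 for 14 heat shock genes, 10 above 0, and 0.20 for 29 genes of hypoxia and glycolysis, 24 above 0. MANF, a chaperone-like factor of the endoplasmic reticulum, stood at 56.8, 77.8 and 97.8 TPM in control and 127, 124.2 and 115.2 in Hmx1. DNAJB1, a co-chaperone of HSP70, stood at 52.9, 69.4 and 117.3 against 147, 127 and 137 TPM. SLC2A1, the glucose transporter GLUT1, stood at 100.1, 167 and 123.6 against 217, 177 and 240 TPM, with log2 changes of 0.68, 0.85 and 0.72 for these 3 genes. Each had separate arms, and control 1 gave the lowest value of all 6 libraries each time. Separate arms with higher values in Hmx1 were present in 4 of 21, 2 of 14 and 6 of 29 genes of these lists. That is 19.0%, 14.3% and 20.7%, against 4.89% of all genes. In hypoxia and glycolysis 1 gene had separate arms with lower values. Without control 1 the medians of the unfolded protein response and heat shock lists were 0.01 and −0.10, beside −0.12 for all genes, and that of hypoxia and glycolysis was 0.16.

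Antigen presentation was represented by 6 tested genes of 16. B2M, the light chain of class I molecules, stood at 68.0, 120 and 36.5 TPM in control and 153, 127 and 131 in Hmx1 (log2 change 1.02, adjusted p = 1), and HLA-C at 12.6, 19.99 and 12.6 against 21.6, 21.5 and 22.1. Both had separate arms, the 2 such genes of the 6 tested (33.3%, against 4.89% of all genes higher in Hmx1). The 27 matrix genes had a median of −0.02, with COL1A2 at 9.23, 8.54 and 29.97 against 11.5, 5.46 and 2.80 TPM. The sources used here do not tell if mouse reads were removed. Among host markers, VWF of endothelium stood at 39.0 TPM in Hmx1 1 and between 3.85 and 8.03 in the other libraries. Skeletal muscle markers summed to 61.0 TPM in control 2 and to between 7.26 and 11.1 in the others, with ACTA1 at 22.4 and DES at 20.9 TPM in control 2 and both below 2 TPM elsewhere. Of 14 fibroblast markers 9 were tested, with 4 above 0 and a median of −0.08 (−0.27 without control 1 and −0.21 without control 2), and they summed to between 174 and 291 TPM per library. COL1A1 stood at 79.2, 43.2 and 104.3 TPM in control and 81.8, 54.5 and 27.1 in Hmx1, with a slope on the mitochondrial share (fitted as for the other slopes) of 0.77 (adjusted p = 0.727). The part of host cells in the values here was not tested. In bulk tumours, fewer cells of a kind and less RNA per cell cannot be told apart.

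Genes of the respiratory chain lay on opposite sides of 0 by genome, in values that did not pass gene by gene. All 13 protein-coding genes of the mitochondrial genome lay below 0, with log2 changes from −0.63 to −0.16 and a median of −0.38. None of them had separate arms, and none of the 37 genes of the mitochondrial genome passed. With quantile normalization 3 of the 13 lay above 0, and without control 1 the count was 1, as it was without control 3. The median was −0.11 without control 1, −0.85 without control 2, −0.23 without control 3 and −0.00021 with quantile normalization. Of 76 nuclear genes for subunits of the 5 complexes, 68 lay above 0, with a median of 0.26. In 21 of them (27.6%, against 4.89% of all genes) every Hmx1 library was above every control library, and in none was every one below. NDUFC1, a subunit of complex I, stood at 29.7, 46.4 and 39.3 TPM in control and 55.5, 63.3 and 52.5 in Hmx1 (log2 change 0.58, adjusted p = 1). COX7C, of complex IV, stood at 288, 365 and 370 against 471, 443 and 529 TPM (log2 change 0.50, adjusted p = 1). The ratio of summed mitochondrial to summed nuclear subunit TPM was 25.4, 6.82 and 18.9 in control and 9.86, 11.5 and 7.97 in Hmx1, so it overlapped between the arms through control 2.

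Ribosomal lists gave similar medians. The mitochondrial ribosome had 66 of 76 genes above 0 and a median of 0.20, and cytosolic ribosomal proteins 47 of 53 and 0.25. The former median was 0.07 without control 1, against −0.12 for all genes, and 0.06 after the rescaling described next, while the latter was 0.11 without control 3, against 0.05, and 0.08 with quantile normalization, against 0.01. Factors of mitochondrial gene expression had 18 of 32 above 0 and a median of 0.03. After the mitochondrial genes were removed and the rest rescaled, the nuclear subunits had 59 of 76 above 0 and a median of 0.13, against −0.08 for all genes. Leaving out control 1 gave 58 of 76 and 0.13, against −0.12 for all genes, and leaving out control 2 gave 71 of 76 and 0.37, against 0.19. The median of the nuclear subunits stayed above that of all genes in these settings, also with quantile normalization (0.12 against 0.01).

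Transcript length moved with this pattern. The median annotated length was 1350 bases for nuclear genes of complex I and 1586 for those of complexes II to V, against 3723 for the protein-coding genes tested. With protein-coding genes split by length into 4 equal groups, the median log2 change was 0.14 in the shortest group and 0.07, 0.01 and −0.04 in the following ones. The part of length in the result was not tested.

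**Figure D3:**
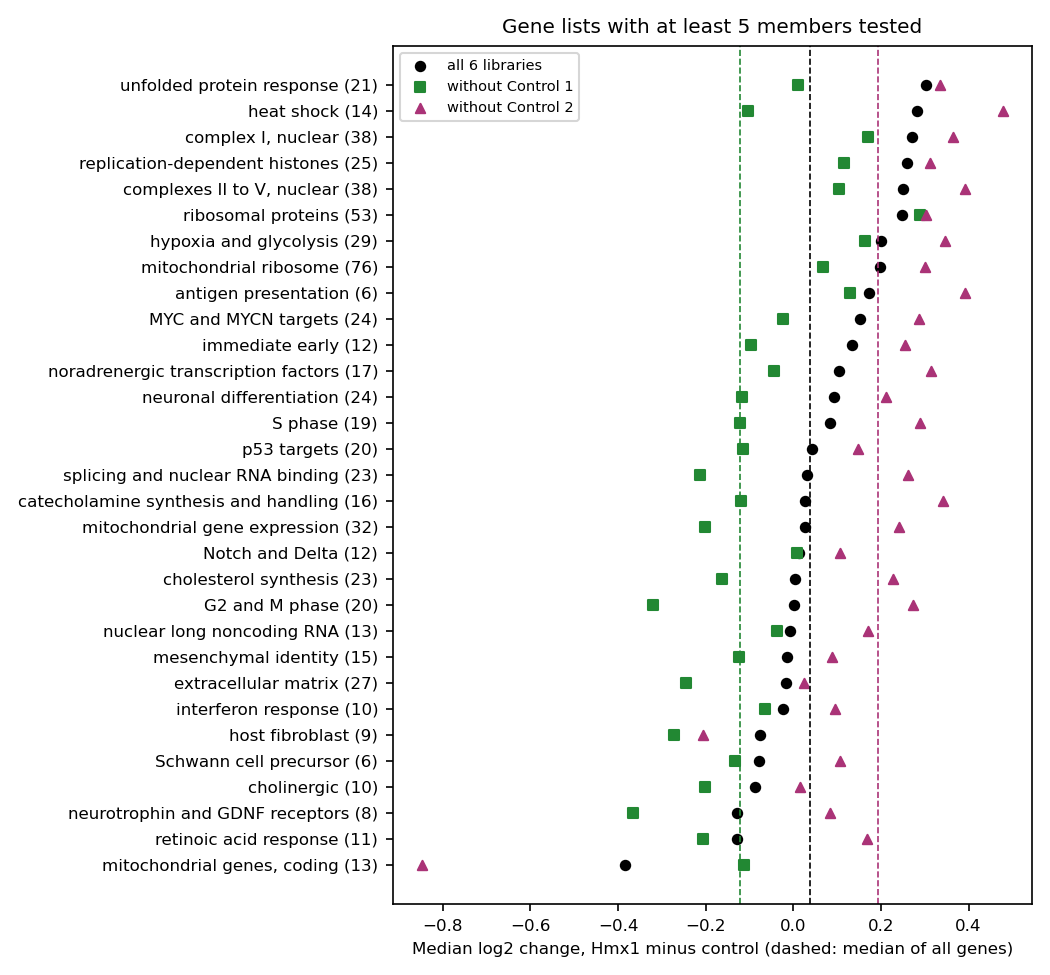
Median log2 change (Hmx1 minus control) of each gene list with at least 5 members tested, members in brackets, from all 6 libraries (black) and without control 1 (green) or control 2 (purple); dashed lines are the medians of all genes in each setting. The unfolded protein response list has the highest median (0.30) and the coding mitochondrial genes the lowest (−0.38) with all 6 libraries.

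Genes that follow the mitochondrial share were sought next. The order of the libraries by share was the reverse of their order by relative depth. A slope on the share therefore cannot be told apart from one on depth, here and in the paragraphs below. The mitochondrial genes were removed, the rest rescaled, and the log2 level of each of 15671 nuclear genes was fitted on the share with a term for the arm, which gives a slope in log2 units per 10 percentage points of share. With this fit 10 genes passed (0.0638%), all with positive slopes, and none with a negative slope. At an unadjusted p under 0.05 there were 696 (4.44%). The median slope was −0.07, with 37.2% of slopes above 0, and without control 2 the median was 0.11. In rank order of the rescaled levels, 27 of the 15671 genes followed the share in all 6 libraries and 9 ran exactly against it. Some genes take any given order of 6 libraries without relation to the share. The counts alone therefore do not show that a gene follows it. Of the 9, CALCOCO2, an autophagy receptor, stood at 14.4, 41.9 and 20.8 TPM in control and 25.9, 25 and 30.1 in Hmx1. It was chosen after its values were seen, and its slope of −0.49 did not pass.

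JUND was the 1 protein-coding gene that passed for the share. It codes for a subunit of the AP-1 transcription factor from a gene with 1 exon, and stood at 56.2, 4.15 and 40.4 TPM in control and 40.8, 30.4 and 33.5 in Hmx1. Control 2, the library with the smallest share, held far less JUND than any other library, and the remaining 5 libraries differed less. The slope was 1.81 per 10 points (SE 0.22, limma adjusted p = 0.0053), and without control 2 it was 0.51 with an adjusted p of 1. A similar low value, 3.60 TPM, was present in 1 of the 12 libraries of the other lines, whose median was 27.9. SOX4, a transcription factor of neural progenitors that also has 1 exon, stood at 24.0, 5.69 and 31.8 TPM in control and 28.6, 31.2 and 20.7 in Hmx1, with a slope of 1.24 (adjusted p = 0.053).

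MTND2P28, a nuclear copy of the mitochondrial gene MT-ND2, was another of the 10. It stood at 1983, 691 and 2150 TPM in control and 1190, 1179 and 763 in Hmx1, with a slope of 1.01 (SE 0.15, limma adjusted p = 0.0146) and of 0.85 without control 2. The levels went with the share in both arms: the lowest values were those of control 2 and Hmx1 3, and the highest those of control 1 and control 3. Of 10 tested nuclear copies of mitochondrial genes, a list made after the values were seen, 9 had positive slopes, with a median of 0.38 (0.75 without control 2), and 1 passed. MTATP6P1 stood at 4728, 1949.5 and 4011 TPM against 2595, 2097 and 1816, and MTCO1P12 at 2206, 904 and 1644 against 1153, 1253 and 942. Reads of a mitochondrial gene and of its near-identical nuclear copy may have been divided between them, so these values are uncertain.

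The other 8 genes that passed lie inside a longer gene on the same strand and were near 0 in control 2. ENSG00000255591, inside NONO, which codes for a nuclear RNA-binding protein, stood at 935, 0.359 and 988 TPM in control and 1157, 1161 and 1275 in Hmx1 (slope 4.85, SE 0.42, limma adjusted p = 0.000302). NONO itself stood at 171, 364 and 199 TPM in control and 278, 292 and 247 in Hmx1, so the host was highest in the library where the inner gene was nearly absent. In all 12 libraries of the other lines ENSG00000255591 lay below 1 TPM. ENSG00000244332, inside the chromatin remodeller gene HELLS, stood at 11.9, 0.262 and 26.4 TPM in control and 26.7, 27.5 and 14.4 in Hmx1, while HELLS was again highest in control 2 (71.0 TPM, against 21.4 to 44.6). SNORD32A, a small nucleolar RNA inside RPL13A, stood at 7.76, 0.0987 and 9.89 TPM in control and 10.5, 14.7 and 6.56 in Hmx1; here the host was not highest in control 2. Without control 2 the slopes of ENSG00000255591, ENSG00000257026 and ENSG00000256989 were −0.05, −0.11 and −0.02, those of the other 7 genes lay above 0, among them SNORD32A at 1.13, and none of the 10 passed.

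Such single-library absences were counted over all genes. Of 63677 identifiers, 8 lay below 1 TPM in control 2 while the other 5 libraries held at least 5 TPM. All 8 were nested in a same-strand gene. They are the 8 genes described above as near 0 in control 2, so this count adds no separate support. The number was 1 in control 1, 1 in control 3, and 1, 0 and 4 in the Hmx1 libraries. Control 2 was therefore the library with most absences of this kind, followed by Hmx1 3.

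**Figure D4:**
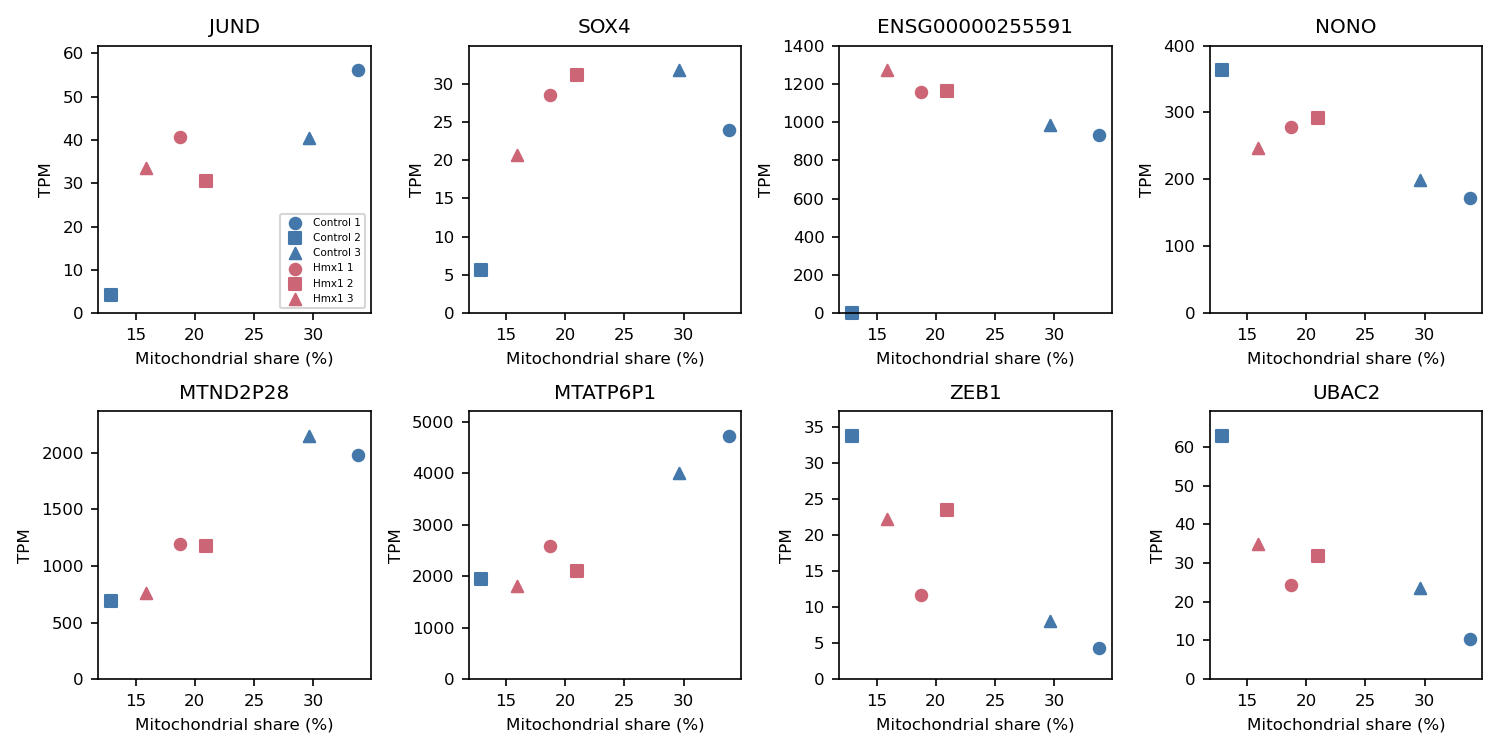
TPM against the mitochondrial share (percent of TPM) for 8 genes, each point 1 library, control in blue and Hmx1 in red. JUND (4.15 TPM) and ENSG00000255591 (0.359 TPM) are low in control 2, at the left end, while MTND2P28 and MTATP6P1 are highest in control 1 and control 3, and ZEB1 and UBAC2 highest in control 2.

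Further genes went with or against the share without passing. Apart from ACTA1 and DES, they were chosen by smallest p among genes with a Spearman correlation of at least 0.8 in size. Going with or against the share is thus built into the choice. DPP7, a lysosomal peptidase, stood at 578, 210 and 312 TPM in control and 272, 258 and 255 in Hmx1 (slope 0.75, adjusted p = 0.239). BAG1, a co-chaperone, AKT1S1, an inhibitor of mTORC1, POU2F1, a POU domain factor, SFRP2, a secreted modulator of WNT signalling, CNFN, CTDSPL and ANKRD18B had slopes of 0.84, 0.72, 1.01, 1.19, 1.01, 0.98 and 0.88, with adjusted p-values from 0.195 to 0.324. ZEB1, a repressor of epithelial genes, stood at 4.25, 33.8 and 8.12 TPM in control and 11.7, 23.5 and 22.3 in Hmx1 (slope −1.05, adjusted p = 0.324). UBAC2, a protein of the endoplasmic reticulum, stood at 10.2, 62.9 and 23.7 against 24.2, 31.7 and 34.9 TPM (slope −0.88, adjusted p = 0.324). GCH1, the first enzyme of tetrahydrobiopterin synthesis and so needed for catecholamine synthesis, stood at 5.19, 33.2 and 9.15 against 6.90, 6.33 and 23.1 TPM (slope −1.10, adjusted p = 0.337). In these 3 genes control 2 was the highest library and control 1 low. The muscle genes ACTA1 and DES, high in control 2 alone, had slopes of −1.59 and −1.58 (limma adjusted p = 0.053 and 0.098). Their Spearman correlations with the share were only −0.2 and −0.37. Without control 2 the median slope of the 3 muscle markers tested was 0.11. The other genes against the share were PDP2, PCDHGB2, PLEKHG4, FMOD, CKAP2, DHX36 and MTHFS, with slopes from −1.04 to −0.62. Without control 2 the slopes of PLEKHG4 and FMOD were 0.0207 and 0.11. PDP2 is the gene around ENSG00000261705, and PCDHGB2 and MTHFS overlap protocadherin genes and ST20-MTHFS on their strands. How reads were divided between these overlapping genes is not known.

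Within the mitochondrial pool the coding genes differed in how steady their proportion was. MT-CO2, a subunit of complex IV and the highest coding gene, made up 16.1% of the pool on average, from 14.1% to 17.98%. MT-CO1 was at 48270.0 TPM in control 1 and 18983 in control 2, and its share of the pool had a coefficient of variation of 4.0%. MT-ND6, the lowest coding gene and the one read from the opposite strand, made up 0.24%, ranged from 174 to 940 TPM, and was the most variable of the coding genes with a coefficient of variation of 31.7%.

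Base composition went with the slope. With protein-coding genes split by GC content of the longest transcript into 4 equal groups, the median slope was −0.15, −0.13, −0.08 and 0.05 from the lowest to the highest. Without control 2 it was −0.21, −0.06, 0.19 and 0.55, so the order was present without that library and the range was wider. By number of exons the medians were −0.04 for 1 exon, −0.05 for 2 to 5, −0.09 for 6 to 15 and −0.12 for 16 or more, and without control 2 they were 0.01, 0.03, 0.08 and 0.19, so both the sign and the order turned. GC content and exon number were looked at after the slopes had been seen, and their part in the slopes of single genes was not tested.

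**Figure D5:**
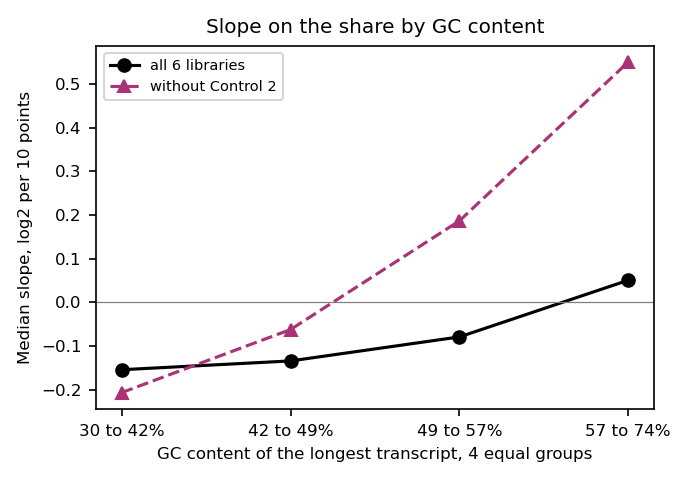
Median slope of protein-coding genes on the mitochondrial share (log2 per 10 percentage points, after removal of mitochondrial genes) in 4 equal groups of GC content of the longest transcript, from all 6 libraries (black) and without control 2 (purple, dashed). The medians go up from −0.15 to 0.05 with all libraries and from −0.21 to 0.55 without control 2.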

How the data were processed

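Stranded poly(A) libraries were sequenced as 125 bp read pairs in 2 lanes after lipid tissue extraction, per the labels' protocols. The submitters' processing notes list the tools STAR, bcl2fastq and FastQC and the builds GRCh37 and GRCh38.p12. Not given in the sources used here are the tool behind the gene tables, the annotation, the use of strand and any removal of mouse reads. TPM, FPKM and coverage signal are deposited columns per the file headers. Coordinates fit GRCh37, since the last gene of chromosome 1 ends at 249231242. Symbols matched 52181 of 63677 identifiers.

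TPM were summed per identifier, and genes with at least 1 TPM in at least 3 of the 6 libraries were fitted as log2(TPM + 1), a scale that understates changes of low genes, with limma 3.58.1 (R 4.3.3, mean-variance trend). P-values were adjusted by Benjamini-Hochberg over all genes. Differences between lines came from a fit of 18 libraries (18650 genes). The fits were tested on simulated data. Exact permutation tests used scipy 1.17.1. Named genes were HMX1, HMX2, HMX3, MYCN, the protein-coding genes that passed, filled to 10 per direction by smallest p with separate arms (for slopes, with a Spearman correlation of at least 0.8 in size), and up to 2 members per list, or up to 4 that passed. Genes without symbol that passed are named as well. The comparison, its genes and lists were chosen with earlier results of these data known. NEFL, UHRF1, BOP1 and PECAM1 were not matched.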

Additional observations from a re-analysis of the deposited data

Results flagged for a closer look

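The effect of the Hmx1 label in KELLY differed from that in another line for several of the genes named above, by a test of the difference itself in a limma fit of all 18 libraries (adjusted over 18650 genes). Against LAN-1, 39 genes passed (0.209%), and against SKNAS 904 (4.85%). Values are log2 differences of the 2 effects. The spread in this fit is pooled over all 18 libraries and may understate that between KELLY libraries. Of the genes given next, DAG1 alone passed in the fit of the 6 KELLY libraries.

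DAG1 was lower in KELLY by −3.19 relative to LAN-1 (adjusted p = 0.0445) and by −3.27 relative to SKNAS (adjusted p = 0.00279). UBB differed by −2.14 (adjusted p = 0.0412) and −1.81 (adjusted p = 0.0114), and ENSG00000241962 by −2.68 (adjusted p = 0.00201) and −1.47 (adjusted p = 0.0201). RNMT differed from SKNAS by −2.73 (adjusted p = 0.0111). TCEAL7 was higher by 1.72 relative to LAN-1 (adjusted p = 0.0179) and by 1.29 relative to SKNAS (adjusted p = 0.0133), where it lay at 0.697 TPM or less. CRH differed from LAN-1 by 2.87 (adjusted p = 0.0162). CRH was listed at 0 in all 6 SKNAS libraries, which add no spread to the fit. Its change in KELLY did not pass (limma adjusted p = 0.442). FABP6, THBS2 and AGPAT5 differed from SKNAS by 1.59, 1.47 and 2.09 (adjusted p = 0.00352, 0.00941 and 0.0201). THBS2 is listed at 0 in all 6 SKNAS libraries, so its difference equals the change in KELLY, which did not pass there (adjusted p = 0.376). HMX2 differed from SKNAS by −1.23 (adjusted p = 0.0307), with a change of 1.19 in SKNAS itself (adjusted p = 0.00163) and levels of at most 0.164 TPM in KELLY.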

How the results depend on the processing

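No paired analysis was possible because the labels carry no replicate numbers. The count of 4 genes that differed between the arms was 0 with no filter on low values (860 at an unadjusted p under 0.05), 2 with a minimum of 5 TPM, 7 with FPKM, 8 after removal of the mitochondrial genes, 19 with the share as a covariate, 14 with all 18 libraries in the fit, and 4 to 15 with 1 library left out, with 15 without Hmx1 1, 11 without control 1, 10 without Hmx1 2 and 7 without control 2. The count of 10 genes that followed the share was 0 with no filter, median-ratio scaling, quantile normalization or no arm term (1869, 1012, 1092 and 715 at an unadjusted p under 0.05), 2 with FPKM, and 5 among genes with no same-strand overlap, an alternative chosen after seeing the data. With 1 library left out it was 0 to 75: 0 without control 2 (328 at an unadjusted p under 0.05), 3 without Hmx1 3, 23 without control 3, 45 without Hmx1 1 and 75 without Hmx1 2. Separate arms were counted in 1636 genes with median-ratio scaling and in 1108 after removal of the mitochondrial genes. The main count was 1006 of 15092 (6.67%). Complete separation of 3 against 3 has an exact permutation p of 0.1. The cause of these differences was not tested.

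HMX1, at −0.01, was 0.20 without control 1, 0.08 without Hmx1 3, 0.23 with the share as a covariate and 0.18 with library weights. MYCN, at 0.09, was −0.0456 with quantile normalization, −0.17 without control 1, −0.08 without Hmx1 1, −0.0505 after removal of the mitochondrial genes and −0.20 with the covariate. With 1 library left out HMX1 ran from −0.22 to 0.20 and MYCN from −0.17 to 0.37. Without control 2, slopes changed sign for PLEKHG4 (0.0207; with 1 library left out −0.76 to 0.0207), FMOD (0.11; −0.68 to 0.11), ENSG00000255591 (−0.0515; −0.0515 to 5.44), ENSG00000257026 (−0.11; −0.11 to 2.26) and ENSG00000256989 (−0.0202; −0.0202 to 2.22). DAG1 passed under 15 of 17 alternatives (log2 change −3.38 to −2.55, adjusted p 0.000256 to 0.434). With 3 libraries an arm and no read counts, changes of low genes and the counting error behind each value could not be given.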
